A study of Mus musculus with 7 samples.

Results

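The clustered protocadherin genes are 3 tandem families of neuronal cell adhesion genes that lie side by side on mouse chromosome 18. They were taken here as the protein-coding genes of GENCODE M21 (mm10) on that chromosome whose symbols begin with Pcdha, Pcdhb or Pcdhg. The rule found 57 genes of 21938 protein-coding genes, namely 14 in the alpha cluster, 22 in the beta cluster and 21 in the gamma cluster. A pair of the alpha genes carry different identifiers and the same symbol, Pcdha11 (ENSMUSG00000007440.10 and ENSMUSG00000102206.5). Peaks were read in the window chr18:36800000-38100000, which holds the clusters, the gaps between them and the flanks.

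Each alpha and gamma gene has its own promoter and a large variable first exon, which codes for the extracellular part of the protein, and splices to 3 constant exons at the end of its cluster that code for the shared cytoplasmic tail. Beta genes have no constant exons. The variants are homophilic adhesion proteins, and single neurons express different sets of the alternate genes, which gives each neuron a surface identity used to tell its own branches from those of other cells. The C-type genes Pcdhac1, Pcdhac2, Pcdhgc3, Pcdhgc4 and Pcdhgc5 are the exception, since they are not chosen at random and are used in a cell type dependent way. Promoter choice is known to depend on DNA methylation, on CTCF and cohesin, and on distant enhancers that lie behind the alpha and gamma clusters.

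The question asked of the window was where chromatin of granule cells carries active marks over these genes, and whether Chd7 or Top2b was called there. Chd7 is an ATP-dependent nucleosome remodeller, Top2b is a DNA topoisomerase, and H3K27ac is a histone mark of active promoters and enhancers. ChIP-seq peaks were available for H3K27ac and Chd7 in freshly isolated wild-type (WT) granule neuron progenitors (GNPs), for Chd7 in Chd7-deficient GNPs, and for Top2b in WT and Chd7-deficient cerebellar granule neurons (CGNs). All cells came from P7 pups of the strain C57BL/6, as the labels give it, or C57BL/6N in the study's methods. GNPs were purified on a percoll gradient, and CGNs were grown from GNPs for 48 h without SHH. WT mice carried Chd7 f/f and Chd7-deficient mice Atoh1-Cre::Chd7 f/f. Atoh1-Cre acts in the granule cell lineage, so other cells of the preparation are not its target, and Chd7 protein is known to remain in the posterior lobe of these mice. Each condition had 1 sample and no replicate, so no difference below could be set against the spread between samples, and all comparisons are descriptions. A peak is a call above background, and a place without a peak may hold signal below the caller's threshold.

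The tables held 31400 H3K27ac peaks, 1946 and 96 Chd7 peaks of WT and Chd7-deficient GNPs, and 17030 and 21505 Top2b peaks of WT and Chd7-deficient CGNs. Read totals are not in the tables, and the drop in Chd7 peaks is the only check of the Chd7-deficient label that they allow. H3K27ac peaks lay at the starts of 10 of 10 markers of GNPs, such as Atoh1, Pax6 and Zic1. They also lay at 5 of 18 markers of other cells (Rora, Pax2, Slc1a3, Sox9 and Mbp), beside 42.9% of all protein-coding genes. The median fold enrichment of the marked genes was 16.6 for GNP markers and 5.63 for markers of other cells. Of the GNP markers, Atoh1 (3.55) and Ccnd2 (2.62) were lower than each of the 5 marked genes of other cells. In a library from pooled cells, a mark present in few cells and a weak mark in every cell cannot be told apart.

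In WT GNPs, H3K27ac sat at one end of the alpha and gamma clusters and was not called over the beta cluster. The window held 28 H3K27ac peaks, of which 3 lay in the alpha cluster, 0 in the beta cluster and 10 in the gamma cluster. Of the others, 1 lay between alpha and beta, 2 lay between beta and gamma, 12 lay in the downstream flank and 0 in the upstream flank. Per 100 kb this was 1.17 peaks in alpha and 5.55 in gamma, beside 1.15 on chromosomes 1 to 19, X and Y. The 13 peaks inside the clusters had a median fold enrichment over the local background of 4.59 (range 2.73 to 8.69), and all H3K27ac peaks had a median of 4.35. The peaks that were called over the clusters were thus of ordinary height, and it was their placement that was uneven.

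**Figure D1:**
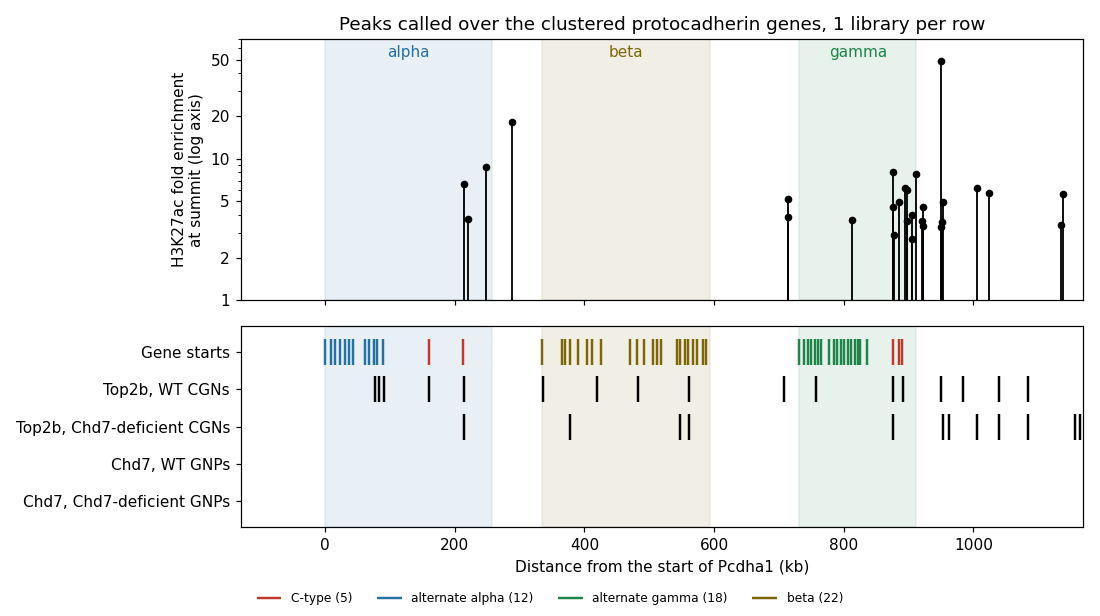
H3K27ac peaks of WT GNPs (upper panel, fold enrichment at the summit on a log axis) and, below, starts of the 57 genes by class and peaks of the other 4 libraries, against distance from the start of Pcdha1 in kb. Vertical ticks are single gene starts or peak centres, shaded bands are the clusters, and the rows of Chd7 in both genotypes hold 0 peaks.

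At the promoters, the C-type genes stood apart from the rest. An H3K27ac peak within 1 kb of the gene start was present at 4 of the 57 genes (7.02%), beside 42.9% of all protein-coding genes. These were 3 of the 5 C-type genes and 1 of the 52 other genes. The alternate alpha genes had 0 of 12, the beta genes 0 of 22 and the alternate gamma genes 1 of 18.

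Pcdhgc3, a gamma C-type gene, had the strongest promoter peak of the family. Its main peak, chr18:37806350-37807666, covered the start of the variable exon. It reached a coverage of 87.5 at the summit (the pileup), 8.05-fold enrichment and 47.5 for −log10 q. A smaller peak lay just upstream of it (chr18:37805861-37806206, fold enrichment 4.59), and another lay 2.04 kb into the gene, within the first exon (fold enrichment 2.91). Pcdhac2, the last variable exon of the alpha cluster, carried a peak of 792 bp at chr18:37143564-37144355 with pileup 48.0, fold enrichment 6.58 and −log10 q 23.2. Its summit was 643 bp inside the gene. Pcdhgc4 had a peak of 1115 bp at chr18:37814570-37815684 with pileup 35.8, fold enrichment 4.94 and −log10 q 12.7. All 3 peaks were higher in fold enrichment than the median of all H3K27ac peaks, which include peaks away from promoters. Of all H3K27ac peaks, 71.2% had a lower fold enrichment than Pcdhac2, 78.5% than the main peak of Pcdhgc3 and 58.3% than Pcdhgc4. Among all protein-coding genes with a promoter peak, the median fold enrichment was 8.48, and all 3 lay below it.

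The other C-type genes had no promoter peak. For Pcdhac1, the nearest H3K27ac peak was the one at Pcdhac2, 53.6 kb away from its start. For Pcdhgc5, the last variable exon of the gamma cluster, the nearest peak edge was 3.83 kb away. Pcdhgc4 and Pcdhgc5, whose starts are neighbours, therefore differed in the call.

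The single alternate gene with a promoter peak was Pcdhgb6, a gamma gene in the middle of its cluster. Its peak, chr18:37742148-37742474, was 327 bp wide and weaker than the promoter peaks of the C-type genes, with pileup 18.8, fold enrichment 3.70 and −log10 q 4.54. Only 34.6% of all H3K27ac peaks had a lower fold enrichment. Most of the 57 genes had no H3K27ac peak nearby, and 49 of them started more than 10 kb from one. The same count was not made over all protein-coding genes, so how unusual this is was not measured. The median distance from gene start to the nearest peak was 148 kb for alternate alpha genes (range 123 to 173 kb), 143 kb for beta genes (46.5 to 208 kb) and 22.4 kb for alternate gamma genes (0.054 kb at Pcdhgb6 to 47.8 kb). The nearest of the alternate gamma genes without a promoter peak was Pcdhga10, at 4.52 kb.

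**Figure D2:**
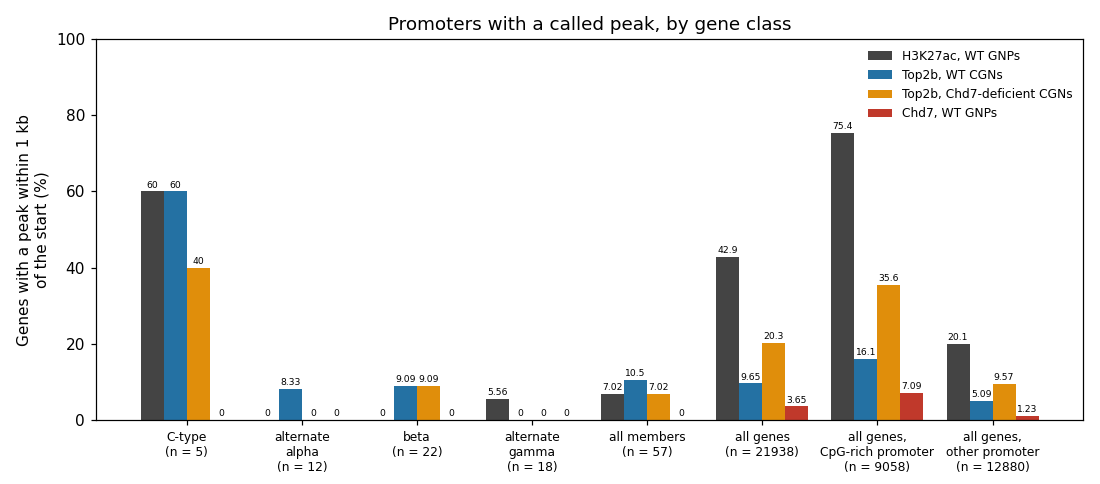
Share of genes (%) with a peak within 1 kb of the start, by class of clustered protocadherin and for all protein-coding genes, together and split by CpG content of the promoter. Each bar is 1 library, values are printed above the bars, and the C-type genes reach 60.0% for H3K27ac while the alternate alpha and beta genes stay at 0.

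The stretches without H3K27ac held many gene starts for their length. Between chr18:37218422 and 37643586, 425 kb without a peak held 23 protein-coding gene starts, which are all 22 beta genes and Slc25a2. Among 31374 stretches between neighbouring H3K27ac peaks, this one ranked 30 by the number of gene starts and 1172 by length. Gene models whose symbols are Gm and a number were left out of all start counts in these stretches. Of the 29 stretches with more starts, olfactory receptor genes were the most numerous family in 16 and vomeronasal receptor genes in 5. A second stretch of 349 kb reached from the upstream flank to Pcdhac2 and held 14 starts, and one of 97.4 kb in the first part of the gamma cluster also held 14. Each ended just inside a gene with a promoter peak, so that the starts counted are those of the 12 alternate alpha genes, Pcdhac1 and Pcdhac2 itself in the former, and of 13 alternate gamma genes and Pcdhgb6 itself in the latter.

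Within the alpha and gamma clusters, the peaks lay toward the constant exons. In the alpha and gamma clusters together, the 81.7 kb from 1 kb before Pcdhac2 and Pcdhgc3 to the cluster ends held 12 H3K27ac peaks, or 14.7 per 100 kb. The 356 kb before these points, with 31 of the gene starts, held 1 peak, or 0.281 per 100 kb. This split was drawn after the peak positions were seen.

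**Figure D3:**
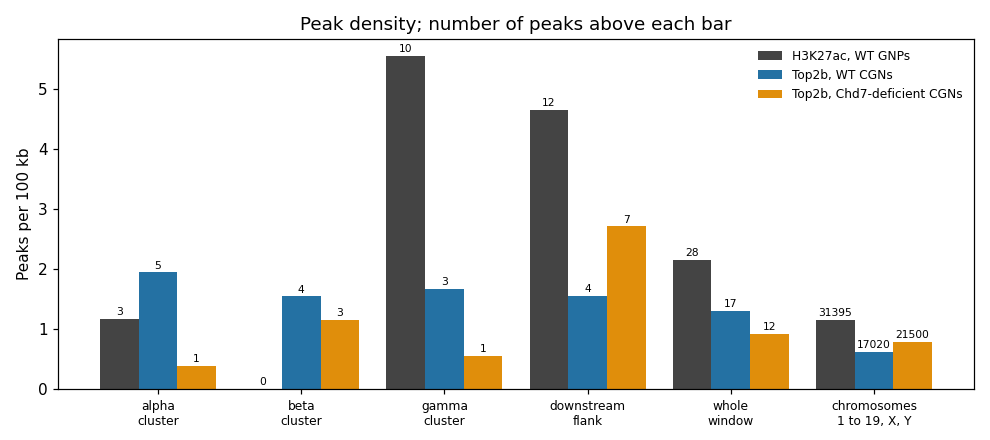
Peaks per 100 kb in the 3 clusters, the downstream flank, the whole window and chromosomes 1 to 19, X and Y, with the number of peaks above each bar. H3K27ac was densest in the gamma cluster (5.55 per 100 kb) and at 0 in the beta cluster, and the Top2b bars show 12 peaks of WT and 5 of Chd7-deficient CGNs in the 3 clusters.

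Beyond the promoters, the constant parts of the alpha and gamma clusters carried most of the remaining peaks. In alpha, a peak of 1124 bp at chr18:37177886-37179009 lay in the intron between constant exons 2 and 3. It had pileup 58.4, fold enrichment 8.69 and −log10 q 34.6, and its fold enrichment was the highest of the 13 peaks inside the clusters, while the main peak of Pcdhgc3 had the higher pileup and −log10 q. A weak peak (fold enrichment 3.74) lay in the intron after Pcdhac2. None of the 3 alpha constant exons overlapped a peak. In gamma, constant exon 1 was covered by a peak of 2288 bp at chr18:37824627-37826914 with fold enrichment 6.24, and constant exon 3 was overlapped at its end by a peak of 2039 bp at chr18:37841066-37843104 with fold enrichment 7.76 that runs over the end of the cluster. Further peaks with fold enrichment from 2.73 to 6.05 lay in the introns between the gamma constant exons.

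The strongest H3K27ac peaks near the clusters lay outside them. Between alpha and beta, 29.3 kb behind the end of alpha, an intergenic peak at chr18:37216937-37218421 had pileup 125.2, fold enrichment 18.03 and −log10 q 112, above 95.9% of all peaks. It was the only H3K27ac peak in the 77.3 kb between these clusters. Behind gamma, 34.8 kb after its end, a peak of 3669 bp at chr18:37876720-37880388 in an intron of Diaph1, a formin that nucleates actin filaments, had pileup 327, fold enrichment 48.6 and −log10 q 429. By fold enrichment it ranked 2 of all 31400 H3K27ac peaks in the genome. The promoter of Diaph1 itself, 55.6 kb from the summit, had a peak of fold enrichment 6.19. The files do not link a distal peak to a gene, so which genes these peaks serve was not tested.

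Other genes in the gaps and flanks had promoter peaks lower than 8.48, the median over all protein-coding genes with a promoter peak. Taf7, a TFIID subunit between beta and gamma, had a fold enrichment of 5.16. Hdac3, a histone deacetylase, and its divergent neighbour Rell2 shared a peak of 5.76. Slc25a2, Fchsd1 and Arap3 had none.

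**Figure D4:**
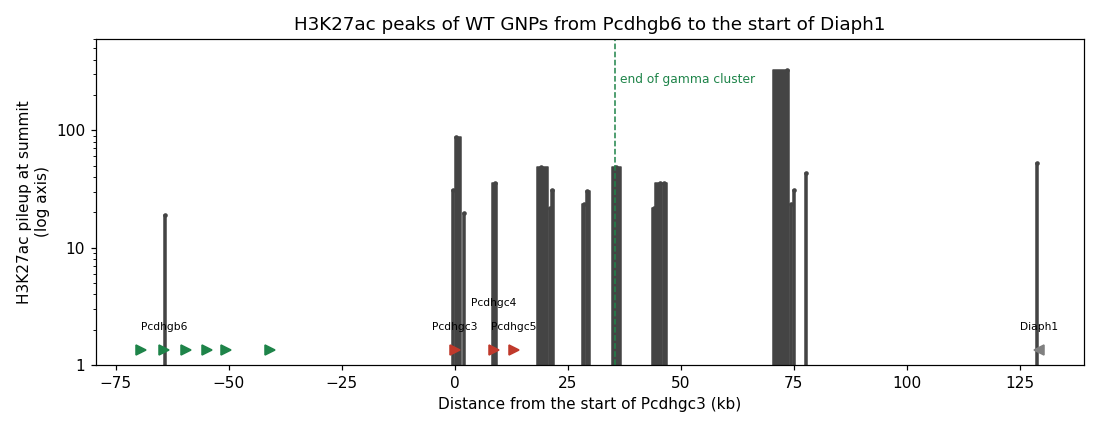
H3K27ac peaks of WT GNPs around the gamma C-type genes, drawn at their widths, with fragment pileup at the summit on a log axis against distance from the start of Pcdhgc3 in kb. Triangles are gene starts and point in the direction of transcription (red C-type, green alternate gamma, grey Diaph1), and the highest block, with pileup 327, lies beyond the end of the gamma cluster.

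Peaks lying close together were joined, at the distance commonly used to stitch super-enhancers, and ranked by the sum of width times pileup, as a stand-in for a super-enhancer call, which needs reads. Of 17535 joined regions, 612 lay past the point where the ranked curve reaches a slope of 1, and 2 of these were in the window. The region chr18:37876720-37884323 in Diaph1, with 4 peaks, ranked 137. The region chr18:37805861-37853379, with 13 peaks from Pcdhgc3 to behind the gamma cluster, ranked 586, close to the threshold. When peaks were joined only within 5 kb, or width was multiplied by fold enrichment, the gamma region was no longer past the threshold, and the Diaph1 region ranked 99 and 103.

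No Chd7 peak was called at any of the 57 genes or anywhere in the window, in either genotype. At promoters this was 0 of 57, beside 3.65% of all protein-coding genes in WT GNPs and 0.0273% in Chd7-deficient GNPs. The nearest WT Chd7 peaks lay 879 kb before the window and 1389 kb after it, although chromosome 18 held 71 WT peaks and 0 of Chd7-deficient GNPs. Of 2087 tiles of 1.3 Mb across the genome, 51.7% held no WT Chd7 peak. Among the 246 tiles with 23 to 33 H3K27ac peaks, a number like that of the window, 27.6% held none. An absence of calls over a window of this size was therefore common, and it is not read as particular to these genes. The 28 H3K27ac peaks of the window included 0 with a Chd7 peak, beside 4.98% of all H3K27ac peaks. Of the 2 H3K27ac peaks in the genome with a fold enrichment of at least 48.6, the one in Diaph1 had no Chd7 peak and the other did.

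Top2b peaks of CGNs were spread over all 3 clusters, the beta cluster included, and mostly lay on variable first exons. In WT CGNs, 12 Top2b peaks lay in the clusters, with 5 in alpha, 4 in beta and 3 in gamma. In Chd7-deficient CGNs there were 5, with 1, 3 and 1. First exons, 2.61 kb long at the median, made up 26.4% of the length of the clusters. They were overlapped by 11 of the 12 WT peaks and by 5 of the 5 peaks of Chd7-deficient CGNs. For H3K27ac in GNPs this was 5 of 13.

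At promoters, Top2b was called in WT CGNs at 6 of the 57 genes, beside 9.65% of all protein-coding genes. The genes were Pcdha12, Pcdhac1, Pcdhac2, Pcdhb1, Pcdhb10 and Pcdhgc3, of which 3 are C-type. In Chd7-deficient CGNs it was called at 4 genes, Pcdhac2, Pcdhb4, Pcdhb16 and Pcdhgc3, beside 20.3% of all genes. The share of members was thus near the background in WT (10.5%) and below it in Chd7-deficient CGNs (7.02%). Only Pcdhac2 and Pcdhgc3 were called in both genotypes, and both had an H3K27ac promoter peak in WT GNPs.

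The peaks at these genes differed in their place within the exon. At Pcdhac1 the peak centre of WT CGNs lay 20 bp inside the gene, and at Pcdhgc3 it lay 33 bp before the start in WT and 151 bp inside in Chd7-deficient CGNs. At Pcdhac2 the centres were 468 and 329 bp inside. Pcdhb4 had its centre 14 bp inside the gene, in Chd7-deficient CGNs only. At Pcdha12, Pcdhb10 and Pcdhb1 the centres of the WT peaks were 0.481, 0.762 and 0.982 kb inside the gene. The remaining WT peaks that overlapped first exons lay 2 kb or more into the gene. At both genes named Pcdha11 (2.04 and 2.04 kb) and at Pcdhga4 (2.09 kb) this was toward the 3′ end of the first exon. At Pcdhb18 (2.26 kb), whose exon is 5.04 kb long, it was nearer to the start. At Pcdhgc5 the centre was 2.71 kb inside the gene and 93 bp past the end of the first exon. Pcdhb18 also had a peak in Chd7-deficient CGNs, separated by 375 bp from the WT one and so not counted as shared. The WT peak outside the first exons lay 5.21 kb before Pcdhb8.

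The number of Top2b calls in the clusters went the other way from the genome between the genotypes. Chd7-deficient CGNs had 1.26 times as many Top2b peaks as WT in the whole genome, 0.706 times as many in the window (12 and 17) and 0.417 times as many in the clusters. Per 100 kb, the clusters held 1.72 peaks in WT, beside 0.624 on chromosomes 1 to 19, X and Y. In Chd7-deficient CGNs they held 0.717, beside 0.789. The density in the clusters was thus above the genome in WT and near it in Chd7-deficient CGNs. A tile of 1.3 Mb with fewer peaks in Chd7-deficient CGNs was not rare, since 26.9% of tiles had fewer. No such share was taken for stretches as short as the clusters. In the window 3 peaks were shared, which is 17.6% of the WT peaks and 25.0% of those of Chd7-deficient CGNs, beside 16.8% and 13.3% in the genome. The libraries were called separately, and the files hold peak positions without heights, so the part of depth and of the calling threshold in these counts was not tested.

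Outside the genes, a WT Top2b peak lay on the strongest H3K27ac peak of the window, in Diaph1, at chr18:37879750-37880145. In Chd7-deficient CGNs the nearest Top2b peak to it was called at chr18:37883620-37884019, on another H3K27ac peak of the same joined region. In the window, 3 of the 17 WT peaks (17.6%) and 4 of the 12 peaks of Chd7-deficient CGNs (33.3%) overlapped H3K27ac of GNPs, beside 17.4% and 26.6% of all Top2b peaks. These shares were close to the genome, and the marks come from different stages, GNPs for H3K27ac and CGNs for Top2b.

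The promoters of these genes share sequence features that the rule did not use. In the 300 bases from 250 before to 50 after the start, they held a median of 6 CpG dinucleotides and a GC content of 39.7%, beside 11 and 55.0% for all protein-coding genes. Only Pcdhac1 and Pcdhgc3 passed as CpG-rich (observed over expected CpG of at least 0.6 and GC of at least 50%), with 17 and 22 CpGs. An H3K27ac peak was present at 75.4% of all genes with a CpG-rich promoter and at 20.1% of the others. Of the 2 CpG-rich members 1 had a peak, and Pcdhac2 and Pcdhgc4, which had peaks, were not CpG-rich. The alternate genes, with 1 of 52, were below the share of other genes without a CpG-rich promoter.

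A conserved element in the promoters of alternate genes is known to have the core CGCT. These letters (CGCT, or AGCG on the other strand) were found in the 300 bases of 55 of the 57 genes, or 96.5%, and were absent from Pcdhb22 and Pcdhga12. They were in 5 of the 5 C-type genes and in 50 of the 52 others, so they did not set the alternate genes apart. They were found at 67.1% of all genes, at 96.4% of those with a CpG-rich promoter and at 46.5% of the others. The median number of CpGs was 6 in the members and 4 in the genes without a CpG-rich promoter, and the median ratio of observed to expected CpG was 0.521 and 0.252, beside 0.525 for all genes. The part of CpG content in the share of promoters with these letters was not tested. A core of the CTCF motif, 12 bases long and searched on both strands, was in 0 of the 57 promoters, beside 2.54% of all genes. The core is one form of the motif, and a match or its absence is a description of the window and says nothing of CTCF binding. Within 200 bp of peak centres, the core was found in 1 of the 17 WT Top2b peaks of the window, the one at Pcdha12, beside 6.52% of all WT peaks.

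Near-identical paralogues can lose reads where only single alignments are kept, so the uniqueness of the sequence was measured. Of the words of read length within 1 kb of a gene start, a median of 100% occurred once in the genome for C-type, beta and alternate gamma genes, and 97.4% for alternate alpha genes, with a lowest value of 92.3%. For 50-base words, the medians were 91.5% for alternate alpha and 99.5% for alternate gamma genes. Over the whole clusters, the share of single words of read length was 91.8% in alpha, 94.5% in beta and 99.1% in gamma. Exact repeats thus covered little of the promoters without a peak, while copies with mismatches were not counted.

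The genes that act on protocadherin choice were marked in the same cells. Of 17 such genes, 13 (76.5%) had an H3K27ac peak at the start, and 13 had a CpG-rich promoter. The share was 42.9% over all protein-coding genes, and 75.4% over those with a CpG-rich promoter. The highest fold enrichments were at Ctcf (43.1), Smc3 (27.1), Nipbl (23.2), Stag2 (22.9) and Rad21 (22.1). Ctcf codes for the factor that binds protocadherin promoters and enhancers, and the others for cohesin subunits or, in the case of Nipbl, the cohesin loader. Chd7 peaks of WT GNPs lay at the starts of 2 of the 17 (11.8%), beside 3.65% of all protein-coding genes. These were Ctcf and Rest, the latter a repressor of neuronal genes. Among 12 non-clustered protocadherins, which are single genes with their own promoters, 3 (25.0%) had an H3K27ac peak, fewer than the 42.9% of all genes. They were Pcdh9 (7.54), Pcdh10 (6.98) and Pcdh18 (4.18). Pcdh9 was the only protocadherin gene of either list with a Chd7 peak at its start.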

How the data were processed

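Per the labels and the study's methods, the authors trimmed paired-end reads with Trim Galore, mapped them to mm10 with Bowtie 1.0.0 keeping single alignments, and called H3K27ac and Chd7 peaks with MACS2 and Top2b peaks with HOMER. The pileup deposited by the authors is a coverage signal at the summit. For H3K27ac its values are not whole numbers, so it is not a raw count of fragments. The fold enrichment and the −log10 p-values and q-values were deposited without decimal points, and were restored by division by 100000 and checked by recomputing the p-values. Top2b files hold positions of fixed width with no score. Peaks were assigned to subregions by summit, and overlaps needed 1 bp. Gene starts came from GENCODE M21, and sequence from GRCm38. All promoters within 1 kb of a start were counted in the same way for members and background. Named genes were the members with a promoter peak, the C-type genes, neighbours with a peak, and at most 5 genes per list. The members named for a peak elsewhere in or near the gene or for a missing motif, Arap3, Rest, Ccnd2 and the markers of other cells were named after their values were seen. Members and lists were chosen with earlier results of these data known. No input library was used here, and no test was run, since each condition has 1 sample. Overlap counting and word counting were tested on simulated data. Python 3.11.15, numpy 2.4.6, pandas 2.3.3, pysam 0.24.0, numba 0.67.0 and matplotlib 3.10.9 were used.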

Additional observations from a re-analysis of the deposited data

How the results depend on the processing

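Of 28 alternatives, 23 left the result the same, which for a count means within 1.5 times the one reported. When −log10 q had to reach 10, the window kept 17 H3K27ac peaks and the gamma cluster 5. The regions past a slope of 1 fell to 1 when peaks were joined within 5 kb, and to 1 when width was multiplied by fold enrichment. By fold enrichment the median cluster peak lay above 54.0% of all H3K27ac peaks, and by pileup above 47.7%. The count of promoters with H3K27ac stayed at 4 for windows of 500 bp and 2 kb and for any transcript start, and was 3 when −log10 q had to reach 5, where Pcdhgb6 was lost. The counts of 0 Chd7 peaks and of 0 H3K27ac peaks in the beta cluster held in each alternative run, but nearly all of these could not have changed them. A stricter threshold cannot add peaks to a count of 0, and the nearest WT Chd7 peak lay 879 kb outside the window. Only counting every subregion that a peak overlaps could have changed the beta count. These alternatives are among the 23, and the others of them say nothing of how stable the counts of 0 are. An alternative with only the higher-scored Top2b peaks was not run, since those files hold no score. No paired analysis was possible because each condition has 1 sample and no result comes from a test. Depth is unknown, since read totals are not in the tables, and a count of 0 peaks is a limit of detection.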
